A study of Mus musculus with 16 samples.

Results

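The 6 sarcomeric myosin heavy chain genes that mark fiber types and developmental stages in limb muscle, Myh4, Myh1, Myh2, Myh7, Myh8 and Myh3, were followed through 16 libraries of mouse gastrocnemius. They were chosen by gene symbol, and all 6 were found among the 35415 genes of the count table and among the 14749 genes that passed the filter on low counts. Male BALB/c mice, 8 weeks old on purchase, formed 4 groups, of which 4 mice each were sequenced. The C group received saline under the skin of the left hind limb and no training, and the E group received saline and treadmill training. In the T group CT26 cells, a colon carcinoma line of BALB/c origin, were placed at the same site without training, whereas the TE group received both the cells and the training, in 12 mice per group. Training began the day after inoculation and ran for 4 weeks, 6 days per week, 60 min per session at 14 m per min, and untrained mice stood on a treadmill that did not move. The limb from which the muscle was taken and the tumor status of each sequenced TE mouse are not given in the sources used here. The study reports that not every TE mouse developed a tumor. Below, TE mice are called tumor-bearing because the sample labels do so. The contrasts ask what the tumor changed without and with training (T vs C, TE vs E) and what training changed without and with the tumor (E vs C, TE vs T).

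Myosin heavy chains are the motor proteins of the thick filament, and the isoform that a muscle fiber contains largely sets its speed of shortening. Adult mouse limb fibers use a slow isoform (Myh7, type I) or a fast one of increasing speed (Myh2 for type IIA, Myh1 for type IIX, Myh4 for type IIB). Embryonic (Myh3) and neonatal (Myh8) isoforms are used by developing and by regenerating fibers. The gastrocnemius of the mouse is known as a fast muscle in which type IIB fibers prevail. In bulk muscle, fewer fibers of a type and less RNA per fiber cannot be told apart.

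The fast and developmental genes lie in a row on chromosome 11 and the slow gene lies on chromosome 14 of GRCm39, the build of the deposited files. On the plus strand the order is Myh3 (chr11:66969126-66993117), Myh2 (chr11:67061838-67088989), Myh1 (chr11:67089132-67116631), Myh4 (chr11:67128336-67151274) and Myh8 (chr11:67167746-67199462). Myh7 lies on the minus strand at chr14:55208141-55232084, beside its cardiac paralog Myh6 at chr14:55179367-55205887. Coding sequences were most alike between Myh1 and Myh2 (91.1% identity) and between Myh7 and Myh6 (91.7%), while Myh4 shared 90.2% with Myh1 and 77.9% with Myh7. Over an alignment of the 6 coding sequences, the stretch with most differences was a 60-base window in which 43 positions varied, and it is shown because such stretches let reads be assigned to an isoform. Capitals mark bases less frequent among the 6 genes at that position than the most frequent base, and at the 8 positions where bases tied for most frequent, none of the tied bases is in capitals.
Myh4: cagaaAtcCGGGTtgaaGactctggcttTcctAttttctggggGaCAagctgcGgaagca
Myh1: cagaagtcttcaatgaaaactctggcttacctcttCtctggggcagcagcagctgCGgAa
Myh2: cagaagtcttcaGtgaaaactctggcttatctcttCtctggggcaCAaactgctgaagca
Myh8: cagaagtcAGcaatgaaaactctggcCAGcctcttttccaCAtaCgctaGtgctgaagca
Myh3: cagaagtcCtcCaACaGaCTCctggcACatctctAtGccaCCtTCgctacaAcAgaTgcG
Myh7: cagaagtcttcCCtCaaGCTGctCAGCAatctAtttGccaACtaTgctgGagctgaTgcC
The window lies within a single coding exon in Myh4 (exon 14, chr11:67139521-67139580), Myh1 (exon 15, chr11:67099928-67099987), Myh2 (exon 15, chr11:67072110-67072169), Myh8 (exon 16, chr11:67180602-67180661) and Myh7 (exon 17, chr14:55224679-55224738), and it spans exons 16 and 17 of Myh3 (chr11:66979893-66980068). By this count Myh7 and Myh3 differed at 20 positions each, Myh4 at 13, Myh8 at 9 and Myh2 and Myh1 at 4 each.

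Other stretches do not separate the genes. The longest run shared by Myh1 and Myh2 was 268 bases in exons 22 and 23 of both (chr11:67104045-67104423 in Myh1 and chr11:67079144-67079522 in Myh2, plus strand, spliced), and the longest shared by Myh7 and Myh6 was 245 bases in exons 32 and 33 of Myh7 (chr14:55212404-55212804, minus strand, spliced), and both are shown since reads from them fit 2 genes.
Myh1 and Myh2: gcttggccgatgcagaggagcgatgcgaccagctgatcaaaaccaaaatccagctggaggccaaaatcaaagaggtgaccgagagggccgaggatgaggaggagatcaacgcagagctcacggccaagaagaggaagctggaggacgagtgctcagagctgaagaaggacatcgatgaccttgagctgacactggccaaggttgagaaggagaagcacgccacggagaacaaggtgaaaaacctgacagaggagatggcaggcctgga
Myh7 and Myh6: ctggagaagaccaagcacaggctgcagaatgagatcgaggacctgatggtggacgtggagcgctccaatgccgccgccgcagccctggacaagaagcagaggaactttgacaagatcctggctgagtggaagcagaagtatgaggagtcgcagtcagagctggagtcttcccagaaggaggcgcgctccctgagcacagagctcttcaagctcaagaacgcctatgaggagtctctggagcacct
Of all 150-base windows of the reference transcript, the length of the reads, 5.51% in Myh7, 2.00% in Myh1, 1.84% in Myh2, 0.517% in Myh4 and 0.533% in Myh8 were identical to a window of another of these genes or of Myh6, and 0% in Myh3. How reads with several matching places were counted is not given in the sources used here. The antisense RNA Myhas overlaps Myh1 by 14550 bases and Myh4 by 385 bases, and the strand setting of the counting is not given either, so reads of the 2 strands cannot be told apart there.

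Library totals ranged from 35628211 to 37635741 counts. The skeletal muscle markers Acta1, Ckm, Ttn and Des summed to 33534 FPKM or more in every library. The cardiac markers Nppa and Myl7 were listed at 0 in all 16 libraries, while Myh6 was detected and Ryr2 had 3 to 33 counts in each library. Several libraries stood apart in markers of other cells. The 5 adipocyte markers summed to 216 FPKM in the second E mouse, the highest of the 16, and to 69.4 FPKM at most in the C group. The lymph node and lymphocyte markers summed to 109 FPKM in the fourth TE mouse and to 37.8 FPKM at most elsewhere. Neutrophil markers summed to 14.1 to 80.5 FPKM in the T mice and 19.4 to 33.6 FPKM in the TE mice, against 8.03 FPKM at most in tumor-free mice. They were highest in the fourth T mouse, as were macrophage markers (14.2 FPKM), while satellite cell markers were highest in the third T mouse (9.86 FPKM). Tendon markers summed to between 51.8 and 82.0 FPKM in the E group and to between 25.5 and 30.1 FPKM in the C group.

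Myh4, the type IIB isoform, dominated in every library. It read 5205, 5378, 5395 and 5145 FPKM in the 4 C mice and 5212, 4573, 5149 and 5147 FPKM in the 4 E mice. It read 5819, 5267, 5406 and 5120 FPKM in the T mice and 4953, 5852, 5737 and 4804 FPKM in the TE mice. The group means were 5281 ± 125, 5020.04 ± 299.8, 5403 ± 301 and 5337 ± 535 FPKM (SD, n = 4 each, in the order C, E, T and TE), and the ranges of all pairs of groups compared overlapped. The second E mouse was lowest of all 16. By counts Myh4 ranked between 2 and 4 among all genes of a library, and the 6 genes together took 3.40% to 4.11% of a library's counts.

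Myh1, the type IIX isoform, came next. Its levels were 503, 621, 553 and 524 FPKM in the C mice and 536, 775, 569 and 578 FPKM in the E mice. In tumor-bearing muscle it read 453, 637, 501 and 805 FPKM without training (T) and 681, 601, 584 and 484 FPKM with training (TE). The means were 549.97 ± 51.4, 615 ± 108, 599 ± 158 and 588 ± 81.1 FPKM (SD, n = 4). The 2 highest values belonged to the fourth T mouse and the second E mouse. Adipocyte markers summed to 128 FPKM in the former and to 216 FPKM in the latter, but also to 156 FPKM in the third T mouse, where Myh1 read 501 FPKM. Their part in the Myh1 level was not tested.

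Myh2 is the type IIA isoform of fast oxidative fibers. It read 334, 338, 321 and 381 FPKM in the C mice and 341, 422, 357 and 419 FPKM in the E mice. Among the T mice the levels were 338, 428, 576 and 536 FPKM, and among the TE mice 407, 328, 385 and 319.9 FPKM. Of the 4 T mice, 3 lay above all C mice, and the third and the fourth were the highest of all 16, but the first T mouse lay within the C range. The means were 344 ± 26.2, 385 ± 41.9, 469.7 ± 108 and 360.0 ± 42.5 FPKM (SD, n = 4).

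Myh7, the slow isoform of type I fibers, was low and uneven. It read 29.0, 14.3, 28.7 and 55.6 FPKM in the C mice and 29.1, 26.0, 34.7 and 38.8 FPKM in the E mice. The T mice had 24.6, 19.7, 48.4 and 77.1 FPKM and the TE mice 27.8, 24.2, 19.7 and 16.6 FPKM. The highest libraries were the fourth T mouse, the fourth C mouse and the third T mouse, so the highest C mouse exceeded 3 of the 4 T mice. Between the fourth T mouse and the second C mouse lay a 5.38-fold difference. The means were 31.9 ± 17.2, 32.1 ± 5.70, 42.4 ± 26.3 and 22.1 ± 4.94 FPKM (SD, n = 4).

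Myh8, the neonatal isoform, was detected at a few FPKM in all libraries. It read 4.83, 4.53, 3.89 and 3.62 FPKM in the C mice and 4.53, 5.22, 4.07 and 4.47 FPKM in the E mice. In the T mice it read 4.11, 3.85, 3.61 and 8.47 FPKM and in the TE mice 5.29, 4.37, 3.49 and 3.36 FPKM. Only the fourth T mouse exceeded 5.29 FPKM.

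Myh3, the embryonic isoform, was under 1 FPKM in 14 of the 16 mice. It read 0.338, 0.386, 0.336 and 0.482 FPKM in the C mice and 0.259, 0.424, 0.544 and 0.424 FPKM in the E mice. The T mice had 0.352, 0.476, 1.27 and 11.6 FPKM, whereas the TE mice had 0.414, 0.220, 0.253 and 0.234 FPKM. The fourth T mouse was 52.9-fold above the lowest library, the second TE mouse, and the third T mouse was the next highest. Behind these levels stood 2588 counts in the fourth and 289 counts in the third T mouse against 49 to 124 counts in the other 14 mice.

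**Figure D1:**
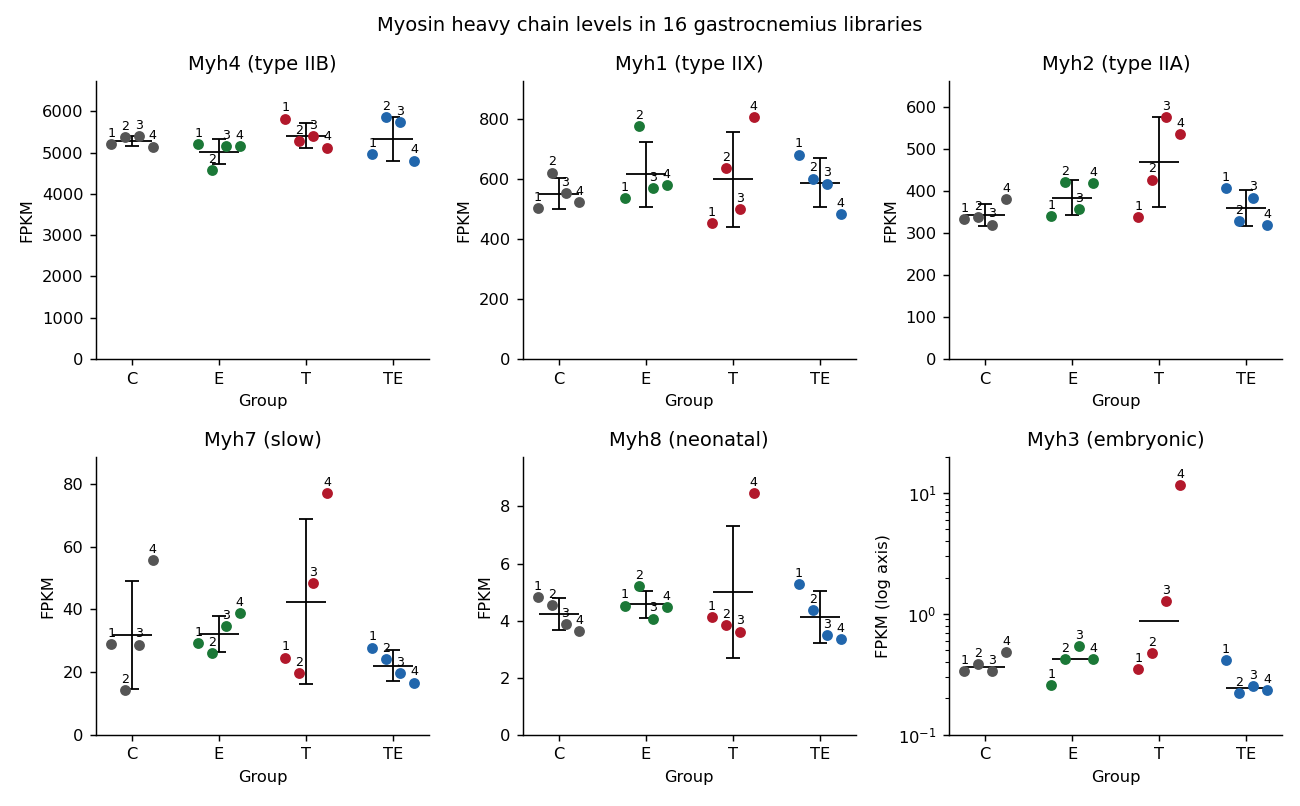
Levels of the 6 myosin heavy chain genes in FPKM (y axis, linear from 0 except for Myh3, which has a log axis) by group (x axis), with each point a mouse and its replicate number beside it. Black lines are the group mean with SD (n = 4), or for Myh3 the group median. In the T group the third and the fourth mouse were the highest for Myh2 and Myh3, at 576 and 536 FPKM and at 1.27 and 11.6 FPKM.

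Per length, the order of the levels was Myh4 over Myh1, Myh2, Myh7, Myh8 and Myh3 in 14 of 16 libraries. In the third T mouse Myh2 passed Myh1, at 576 against 501 FPKM, and in the fourth T mouse Myh3 passed Myh8, at 11.6 against 8.47 FPKM. In the C, E and TE groups the neighbours in this order did not overlap in their ranges. In the T group the ranges of Myh1 (453 to 805 FPKM) and Myh2 (338 to 576 FPKM) overlapped, as did those of Myh8 (3.61 to 8.47 FPKM) and Myh3 (0.352 to 11.6 FPKM). The Myh4 level was 9.20 ± 1.70 times that of Myh1 (SD, n = 16), with extremes of 5.90 in the second E mouse and 12.8 in the first T mouse. Myh1 was 1.53 ± 0.240 times Myh2 over the same libraries.

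None of the 6 genes passed the test in T vs C. At an adjusted p-value under 0.05 by edgeR's quasi-likelihood test, 0 of 6 were called, where 0.678% of all tested genes were. At an unadjusted p-value under 0.05, Myh2 and Myh3 were higher in the T group (2 of 6 genes, against 14.2% of tested genes). Myh3 had a log2 fold change of 3.17 (SE 0.80, unadjusted p = 0.000988 and adjusted p = 0.0776 by edgeR), and without the fourth T mouse it was 0.87 (edgeR, unadjusted p = 0.0271). For Myh2 the log2 fold change was 0.47 (SE 0.13, edgeR, unadjusted p = 0.00205 and adjusted p = 0.106), with 3 of 4 T mice above all C mice. DESeq2, run as an alternative, called both genes (adjusted p = 0.00934 for Myh3 and 0.0216 for Myh2) among the 2.81% of genes that it called. Without the first T mouse edgeR also called both (Myh2 at 0.59 and Myh3 at 3.55, adjusted p = 0.0313 and 0.0325), and without the second T mouse it called Myh3 (3.53, adjusted p = 0.0228). The other 4 genes had log2 fold changes of 0.43 (SE 0.37) for Myh7, 0.27 (SE 0.22) for Myh8, 0.15 (SE 0.16) for Myh1 and 0.06 (SE 0.08) for Myh4. With the third and the fourth T mouse left out together, a choice made after seeing the data, Myh2 stood at 0.20 and Myh3 at 0.15 (edgeR, unadjusted p = 0.123 and 0.636).

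In TE vs T the T mice are those of T vs C, so the comparisons are not independent. Here too 0 of 6 genes were called by edgeR, as were 0% of all tested genes, whereas at an unadjusted p-value under 0.05 there were 3 of 6, all lower in the TE group, against 5.88% of tested genes. Myh3 differed by -3.62 on the log2 scale (SE 0.82, edgeR, unadjusted p = 0.000391 and adjusted p = 0.590), and DESeq2 called it (adjusted p = 0.0334) among the 0.0294% of genes that it called. Myh7 differed by -0.95 (SE 0.38, edgeR, unadjusted p = 0.0222) and Myh2 by -0.39 (SE 0.13, edgeR, unadjusted p = 0.00767). For no gene did the TE mice lie wholly below the T mice. Myh8, Myh1 and Myh4 differed by -0.30, -0.04 and -0.03. Without the fourth T mouse Myh3 stood at -1.31 and Myh7 at -0.48, and without the third and the fourth at -0.60 and -0.04. Myh2 ran from -0.51 to -0.29 with 1 mouse left out and stood at -0.12 without the third and the fourth T mouse. The fourth T mouse also had the highest neutrophil marker sum (80.5 FPKM) and the third the highest satellite cell marker sum (9.86 FPKM), whose part in the result was not tested.

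For training without a tumor (E vs C), none of the 6 genes passed the test, and the groups overlapped for each of them. edgeR called 0 of 6 genes (0.0881% of tested genes) and found 0 of 6 at an unadjusted p-value under 0.05 (14.2% of tested genes), and DESeq2 called 0 of them and 1.95% of all genes. The log2 fold changes were 0.13 (SE 0.13) for Myh2, 0.13 (SE 0.16) for Myh1, -0.11 (SE 0.08) for Myh4, 0.08 (SE 0.22) for Myh8, 0.06 (SE 0.81) for Myh3 and -0.03 (SE 0.37) for Myh7.

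For the tumor in trained mice (TE vs E), none of the 6 passed either. edgeR called 0 of 6 genes (0.231% of tested genes), with 0 of 6 at an unadjusted p-value under 0.05 (9.23% of tested genes), and DESeq2 called 0 of them and 1.19% of all genes. The log2 fold change of Myh7 was -0.49 (SE 0.38) and that of Myh3 -0.51 (SE 0.83), while Myh4 had 0.14 (SE 0.08), Myh8 -0.10 (SE 0.22), Myh2 -0.05 (SE 0.13) and Myh1 -0.02 (SE 0.16).

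**Figure D2:**
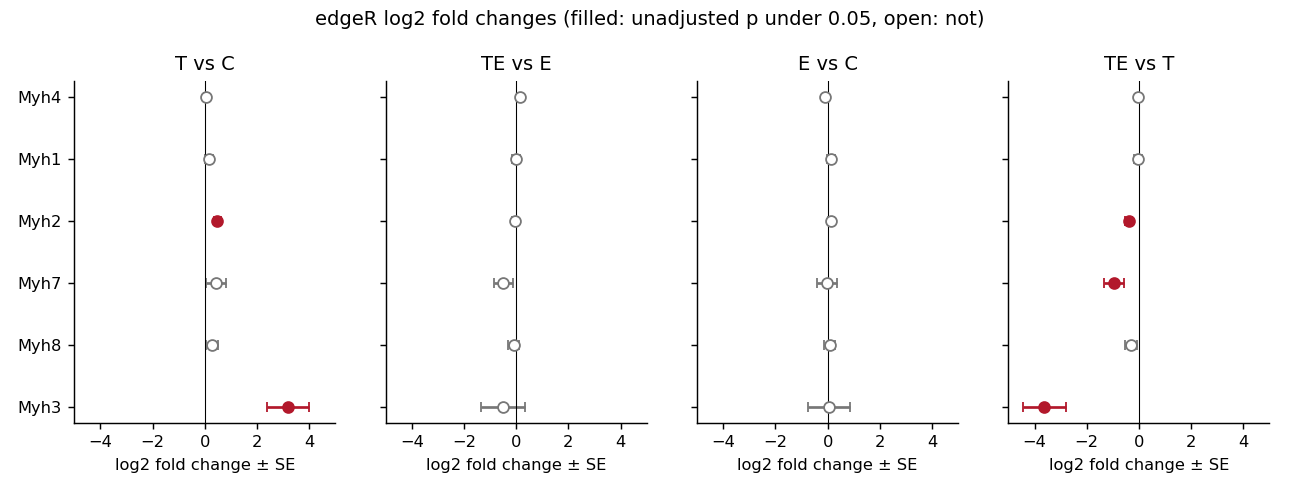
Log2 fold changes by edgeR with their standard errors (x axis) for the 6 genes (y axis) in the 4 pairwise comparisons, filled where the unadjusted p-value was under 0.05. Myh2 and Myh3 lie to the right in T vs C and, with Myh7, to the left in TE vs T, and the T group is part of both comparisons.

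With all 16 mice, the tumor averaged over training gave 0 of 6 genes called (edgeR, 1.36% of tested genes) and 2 of 6 higher at an unadjusted p-value under 0.05 (14.2% of tested genes), namely Myh2 (0.21, SE 0.09) and Myh3 (1.33, SE 0.57). Without the fourth T mouse Myh3 stood at 0.18, and without the third and the fourth it turned to -0.18. Training averaged over the tumor gave 0 of 6 called (0.00678% of tested genes) and 1 of 6 at an unadjusted p-value under 0.05 (10.8% of tested genes), Myh3 at -1.78 (SE 0.57), which was -0.63 without the fourth T mouse and -0.27 without the third and the fourth. The interaction, which asks whether training acted differently with and without the tumor, gave 0 of 6 called (0% of tested genes) and 2 of 6 at an unadjusted p-value under 0.05 (9.21% of tested genes). These were Myh2 at -0.52 (SE 0.18, edgeR, adjusted p = 0.438) and Myh3 at -3.68 (SE 1.14, edgeR, adjusted p = 0.438). Without the fourth T mouse the latter was -1.37, and without the third and the fourth Myh3 stood at -0.66 and Myh2 at -0.25. DESeq2 called 0 of the 6 genes in these 3 comparisons, where it called 3%, 0.735% and 0.122% of all genes.

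Expressed as a share of the summed FPKM of the 6 genes, Myh4 took 85.0% ± 0.729 in the C group, 82.8% ± 2.79 in the E group, 82.8% ± 3.91 in the T group and 84.5% ± 2.01 in the TE group (SD, n = 4). The lowest Myh4 shares were those of the fourth T mouse (78.1%) and the second E mouse (78.8%). Myh1 took 8.85% ± 0.645, 10.2% ± 2.12, 9.19% ± 2.46 and 9.33% ± 1.26, in the same order of groups. The share of Myh2 was 5.54% ± 0.497 in the C group, 6.36% ± 0.799 in the E group, 7.21% ± 1.66 in the T group and 5.73% ± 0.766 in the TE group. Slow Myh7 took 0.517% ± 0.286, 0.529% ± 0.0825, 0.649% ± 0.399 and 0.350% ± 0.0775. Embryonic and neonatal isoforms together took 0.306% in the fourth T mouse and between 0.0556% and 0.0972% in the other 15. The groups overlapped in all 20 combinations of a share and a pairwise comparison. By a two-sided exact permutation test, whose smallest p for 4 against 4 mice is 0.0286, the lowest p was 0.0571 for Myh7 in TE vs E, and the lowest of the 20 adjusted p was 0.629. Averaged over the other factor, each of the 10 tests had an adjusted p of 0.918 (exact permutation within strata, lowest unadjusted p = 0.312).

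**Figure D3:**
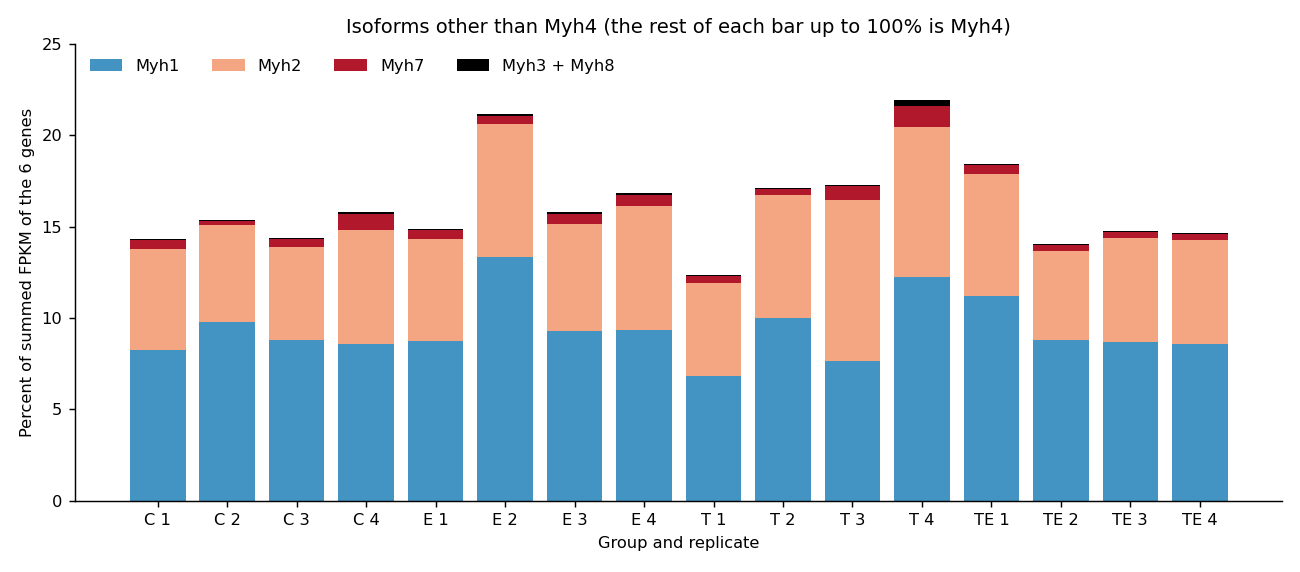
Stacked bars give Myh1, Myh2, Myh7 and the sum of Myh3 and Myh8 as a percentage of the summed FPKM of the 6 genes (y axis, from 0 to 25%) in each library (x axis). The fourth T mouse and the second E mouse have the tallest bars, where Myh4 makes up 78.1% and 78.8%.

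The 6 genes differed in how much they varied between mice. The SD of log2 CPM over the 16 libraries was 0.12 for Myh4, at percentile 21.5 of all tested genes, 0.23 for Myh1 (percentile 54.7) and 0.26 for Myh2 (percentile 59.3). It was 0.33 for Myh8 (percentile 67.6), 0.64 for Myh7 (percentile 87.4) and 1.36 for Myh3 (percentile 99.4). The part of the variance that lay between groups was 47.6% for Myh2, 40.4% for Myh3 and 29.7% for Myh4. It was 20.4% for Myh7, 7.39% for Myh8 and 4.63% for Myh1, and the median tested gene had 24.7%.

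Some isoforms varied together over the 16 mice. Among 15 pairs, 4 passed a permutation test of Pearson's r on log2(FPKM + 1) after adjustment. Myh1 and Myh8 had r = 0.72 (permutation test, adjusted p = 0.0084) and Spearman's rho = 0.57 (permutation test, adjusted p = 0.119). For Myh7 and Myh3 r was 0.69 (permutation test, adjusted p = 0.0084) and rho 0.64 (permutation test, adjusted p = 0.0700). Myh2 and Myh3 had r = 0.67 (permutation test, adjusted p = 0.0267) and rho = 0.77 (permutation test, adjusted p = 0.0114), and Myh2 and Myh7 had r = 0.62 (permutation test, adjusted p = 0.0387) and rho = 0.44 (permutation test, adjusted p = 0.284). The unadjusted p of these 4 were 0.00112, 0.00107, 0.00535 and 0.0103 for r (permutation tests), and 0.0239, 0.00933, 0.00076 and 0.0948 for rho (permutation tests). With the 2 libraries farthest from the median of the gene named first left out, r fell to 0.42 for Myh1 and Myh8, 0.62 for Myh7 and Myh3, 0.57 for Myh2 and Myh3, and 0.24 for Myh2 and Myh7. The fourth T mouse was among the libraries left out in each of these pairs, and without the third and the fourth T mouse none of the 4 passed. Within groups, with group means removed, r was 0.74, 0.67, 0.52 and 0.60.

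Apart from the levels, the 250 bases before the RefSeq start of transcription were compared (promoters from RefSeq, GRCm38.p6, each matched to a single place in GRCm39). Among the 6 genes the longest shared run was that of Myh1 and Myh8, at 22 bases. The run begins 216 bases before the start of Myh1 (chr11:67090712-67090733) and 104 bases before that of Myh8 (chr11:67167846-67167867), and capitals mark a match to the MEF2 site, a run of A and T bases bound by MEF2 factors.
Myh1 and Myh8: tcaaaTTATTTATAGgagattg
Myh4 holds the same 10 bases 182 bases before its start, in a run of 17 bases shared with Myh8 (chr11:67128449-67128465), and Myh2, Myh7 and Myh3 hold no match in this window. The RefSeq starts of Myh1 (67090928), Myh8 (67167950) and Myh4 (67128638) lie inside the gene spans given above. The runs printed here therefore also lie inside those spans. On either strand, 2.92% of 32851 promoters of the same length hold a MEF2 site. Runs nearly as long were shared by Myh4 and Myh2 (21 bases), Myh1 and Myh2 (21) and Myh4 and Myh1 (20). The levels of these pairs had r of -0.18, 0.44 and -0.39, and none passed. Of the pairs that passed, Myh7 and Myh3 share 8 bases, and Myh2 shares 9 with each of Myh7 and Myh3. A match describes letters only, and no binding was measured here.

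As a description over the 16 libraries, with no test, the genes most like Myh7 in log2 CPM were Myh6 (r = 0.990), Tpm3 (0.982), Tnnc1 (0.979), Atp2a2 (0.970) and Tnnt1 (0.951). Tpm3, Tnnc1 and Tnnt1 encode thin filament proteins of slow fibers and Atp2a2 their calcium pump. Myh6, the alpha cardiac isoform, read 3.42 to 16.4 FPKM and followed Myh7 in a ratio of 3.93 to 5.08 in all 16 libraries. The part of shared reads in the Myh6 level was not tested. Among those most like Myh2 were Mybpc1 (0.918), Myom3 (0.900), Myoz2 (0.885) and Homer2 (0.874), of which Mybpc1 is the slow myosin binding protein and Myoz2 a Z-disc protein of oxidative fibers. Most like Myh3 were the imprinted RNA H19 (0.914), Myl6b (0.908), an embryonic and slow light chain, Cthrc1 (0.890), Mybpc1 (0.889) and Lgmn (0.879), each highest in the fourth T mouse. Myh8 was followed by Tpm2 (0.827), Obsl1 (0.824), Adam8 (0.804), Itga7 (0.797) and Lrrc15 (0.793), also highest in that mouse. For Myh1 the leading gene was Pparg (0.825), the regulator of fat cell formation, at 1.26 to 2.59 FPKM with its highest level in the second E mouse, and Got2, Osbpl1a and Ammecr1l (0.772 to 0.769) were among those that followed. For Myh4 it was Trap1 (0.858), a mitochondrial chaperone, followed by Norad, Dcaf6, Tfeb and Htatsf1 (0.829 to 0.802).

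Most genes of the slow fiber program correlated with Myh7, Myh2 and Myh3 across mice. Of 19 tested genes of this list, all 19 correlated positively with Myh7 (median r = 0.73), 18 with Myh2 (0.61) and 18 with Myh3 (0.71), where the median over all tested genes lay between -0.01 and 0.00. In T vs C 17 of 19 had a positive log2 fold change, with a median of 0.42 (0.00 for all tested genes), and 10 were higher at an unadjusted p-value under 0.05, but edgeR called 0. Among all 14749 tested genes 49.7% had a positive log2 fold change, 1214 were higher at that p-value and 0.678% were called. Examples are Ankrd2, a stress-responsive titin-binding protein of slow muscle, at 1.07 (edgeR, adjusted p = 0.151), Csrp3 at 1.23 (edgeR, adjusted p = 0.163), Myoz2 at 0.61 (edgeR, adjusted p = 0.111) and Mybpc1 at 0.38 (edgeR, adjusted p = 0.160). Ankrd2 read 296 FPKM in the third T mouse, 87.9 to 108 FPKM in the other T mice and 93.1 FPKM at most in the C mice, and Csrp3 read 374 FPKM there, 98.8 to 148 FPKM in the other T mice and 117 FPKM at most in the C mice. These 2 genes were thus high in the third T mouse and not in the fourth, whereas Myoz2 (261 and 227 FPKM) and Mybpc1 (507 and 544 FPKM) were high in both. In TE vs T 18 of 19 had a negative log2 fold change, with a median of -0.63 and 14 lower at an unadjusted p-value under 0.05, where 444 of all 14749 tested genes were lower at that p-value. Of all tested genes 50.5% had a positive log2 fold change there. edgeR called 0 of the list and 0% of all genes. Neutrophil (80.5 FPKM) and macrophage (14.2 FPKM) marker sums were highest in the fourth T mouse and the satellite cell sum (9.86 FPKM) in the third. Their part in these results was not tested. The mean log2 level of the list was highest in the fourth and the third T mouse, next in the fourth C mouse. With these 2 T mice left out, a choice made after seeing the data, 8 of 19 were higher in T vs C (median -0.06) and 15 of 19 lower in TE vs T (median -0.13), and the counts at an unadjusted p-value under 0.05 were 0 and 1. Over all 15329 genes tested in that fit, 1452 and 1144 passed at that p-value in either direction. In E vs C 7 of 19 were higher and in TE vs E 6, with medians of -0.03 and -0.10, where 50.6% and 50.8% of all tested genes were higher.

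**Figure D4:**
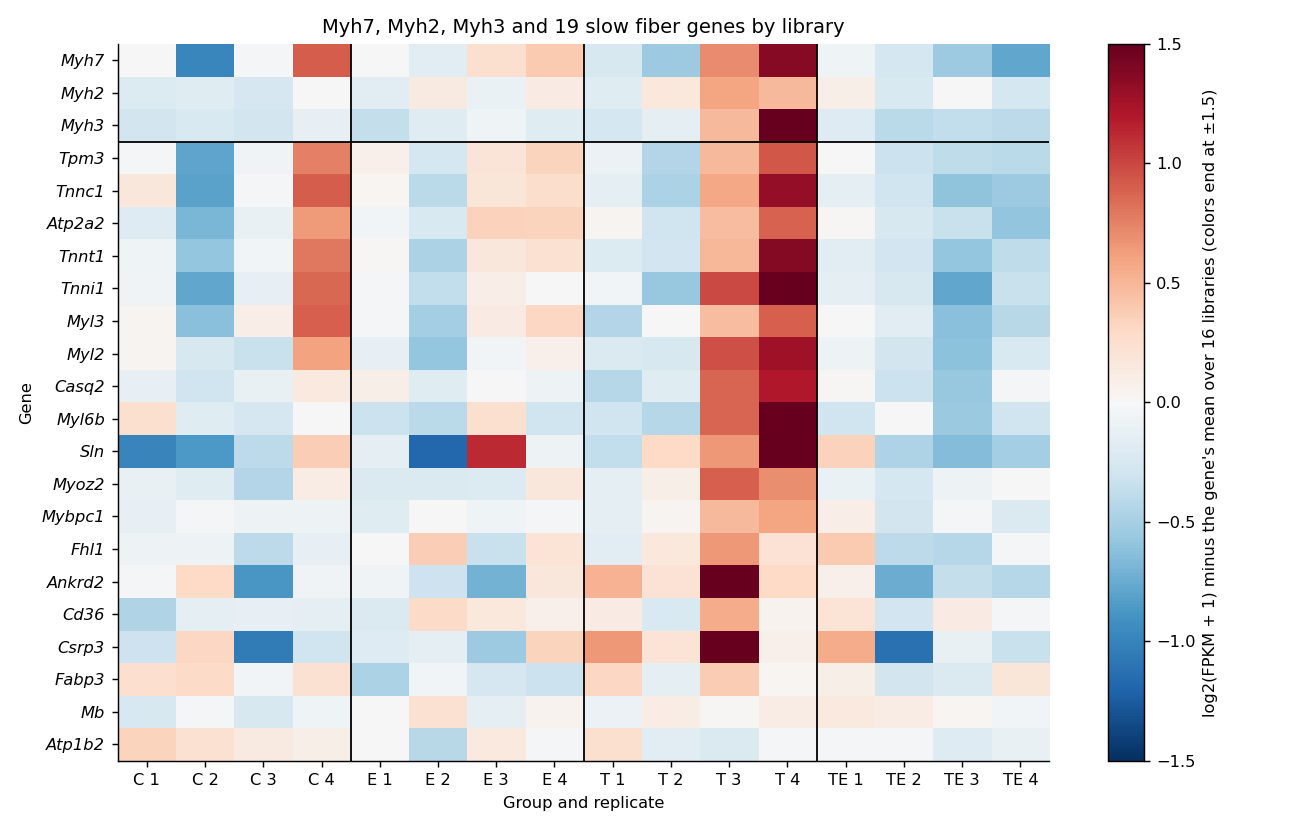
Heat map of Myh7, Myh2, Myh3 and 19 genes of the slow fiber program (rows, ordered by their correlation with Myh7) in 16 libraries (columns). Color is the difference of log2(FPKM + 1) from the mean of the gene, and most rows are reddest in the third and the fourth T mouse, where Myh7 read 48.4 and 77.1 FPKM, with several also red in the fourth C mouse (55.6 FPKM).

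Of 20 tested genes of the fast fiber program, such as the fast troponins and glycolytic enzymes, 19 correlated positively with Myh4 (median r = 0.46), among them Atp2a1, the fast calcium pump (0.79). In E vs C all 20 had a negative log2 fold change with a median of -0.14, where 50.6% of all tested genes had a positive one. They were led by Actn3, the alpha-actinin of fast glycolytic fibers, at -0.28 (edgeR, adjusted p = 0.209). At an unadjusted p-value under 0.05, 2 were lower, against 837 of all 14749 tested genes. Without the third and the fourth T mouse it was 10, where 2423 of 15329 tested genes passed in either direction. Beside this, tendon markers summed to 51.8 to 82.0 FPKM in the E mice and 25.5 to 30.1 FPKM in the C mice, smooth muscle markers to 169 to 195 and 117 to 148 FPKM, and adipocyte markers to 39.1 to 216 and 12.1 to 69.4 FPKM, and their part in the result was not tested. Myh4 itself had -0.11 there. TE vs E gave 18 of 20 positive (median 0.09), with 4 higher at an unadjusted p-value under 0.05 (546 of all 14749 tested genes), T vs C 6 of 20 (median -0.11, 2 lower at that p-value against 879 of all) and TE vs T 13 of 20 (median 0.07). Of all tested genes, 50.8% were positive in TE vs E, 49.7% in T vs C and 50.5% in TE vs T. In TE vs E, too, the E mice had the higher tendon sums (25.2 to 36.9 FPKM in the TE mice) and smooth muscle sums (117 to 139.6 FPKM in the TE mice), and the interaction rests on the same E mice. Without the third and the fourth T mouse the T vs C and TE vs T medians changed sign, to medians of 0.02 and -0.04. The interaction was positive for 20 of 20 genes, against 49.8% of all tested genes, with a median of 0.18 (17 of 20 and 0.10 without these mice). At an unadjusted p-value under 0.05, 3 were higher (545 of all). The tumor averaged over training had 4 such genes (1093 of all). edgeR called 0 genes of the list in all 7 comparisons, where it called 0% to 1.36% of all tested genes.

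Developmental and denervation genes correlated with Myh3 at a median r of 0.27 (16 of 21 positive). In T vs C 16 of 21 tested genes were higher (median 0.23) and edgeR called 0, with 6 at an unadjusted p-value under 0.05, against 49.7% of all tested genes higher, 0.678% called and 14.2% at that p-value in either direction. Without the fourth T mouse 12 of 21 were higher (median 0.04, 3 at an unadjusted p-value under 0.05), and without the third and the fourth 12 of 21 (median 0.06, 2 higher and 1 lower at that p-value). Over all tested genes, 2041 of 14966 and 1452 of 15329 passed at that p-value in these fits, in either direction. Schwann cell markers summed to 81.5 to 175 FPKM in the T mice and 116 to 280.0 FPKM in the C mice, and their part was not tested. With the tumor averaged over training 2 of 21 passed, against 1.36% of all tested genes, Cdkn1a, a cell cycle inhibitor, at 1.01 (SE 0.22, edgeR, adjusted p = 0.0295) and Gadd45a, a stress gene raised in denervated muscle, at 0.39 (SE 0.09, edgeR, adjusted p = 0.0402). Both calls were lost without any 1 of the third and the fourth E mouse, the third and the fourth C mouse, and the third TE mouse. Cdkn1a read 4.93 to 7.80 FPKM in the C mice and 7.49 to 29.9 FPKM in the T mice, and 7.93 to 11.9 FPKM in the E mice and 10.9 to 19.4 FPKM in the TE mice, with overlap in both pairs. Neutrophil markers summed to 14.1 FPKM or more in each tumor-bearing mouse and to 8.03 FPKM at most in tumor-free mice, and their part in the result was not tested. Sln, which encodes the calcium pump inhibitor sarcolipin, reached 32.4 FPKM in the fourth T mouse and 1.01 to 8.89 FPKM in the other 15. Myl6b read 26.2 FPKM there, 11.6 FPKM in the third T mouse and at most 7.20 FPKM elsewhere.

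Of 33 tested regulators of fiber type and myosin chaperones, Foxo1, a transcription factor of muscle atrophy genes, rose in T vs C by 0.66 (SE 0.12, edgeR, adjusted p = 0.0195). It was the 1 call among the 33, against 0.678% of all tested genes. It read 3.96, 4.26, 5.08 and 4.56 FPKM in the C mice and 7.64, 5.28, 7.61 and 7.17 FPKM in the T mice, without overlap. The call in T vs C was lost without any 1 of the first, the second and the fourth C mouse and the first and the third T mouse. With the tumor averaged over training 2 of the 33 were called, against 1.36% of all tested genes. Foxo1 rose there by 0.47 (SE 0.09, edgeR, adjusted p = 0.00948), with 4.80 to 6.12 FPKM in the E mice and 5.69 to 7.95 FPKM in the TE mice, which overlapped. Prdm1, a transcriptional repressor, fell in the same comparison by 1.23 (SE 0.25, edgeR, adjusted p = 0.0164). It read 0.144 to 0.361 FPKM in the C mice and 0.0477 to 0.120 FPKM in the T mice, and 0.153 to 0.281 FPKM in the E mice and 0.0530 to 0.124 FPKM in the TE mice, without overlap in either pair. Lymph node and lymphocyte markers summed to 8.69 to 35.5 FPKM in the C mice, 13.7 to 37.8 FPKM in the E mice and 4.16 to 10.9 FPKM in the T mice. In the TE mice they ran from 4.69 to 109 FPKM, and the TE mouse with 109 FPKM had 0.0923 FPKM of Prdm1. Neutrophil markers were higher in each tumor-bearing mouse, as given for Cdkn1a, and the part of either in the Foxo1 and Prdm1 results was not tested. Esrrg, a nuclear receptor that drives oxidative fiber genes, stood at 0.58 in T vs C and Ppargc1a, the coactivator of mitochondrial and slow fiber genes, at 0.39 (edgeR, adjusted p = 0.0776 and 0.1003). In E vs C the regulators with the smallest p were Eya1 at 0.33 and Ppargc1a at 0.37 (edgeR, adjusted p = 0.150 and 0.153). Esrrg differed by -0.47 in TE vs T and by -0.78 in the interaction (edgeR, adjusted p = 0.693 and 0.420).

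Of the 8 other myosin heavy chain genes, 7 were tested. edgeR called 0 of them in all 7 comparisons, where it called 0% to 1.36% of all tested genes. Non-muscle Myh10 had 0.84 in T vs C (edgeR, adjusted p = 0.0754) and -0.61 in TE vs T (edgeR, adjusted p = 0.724). Smooth muscle Myh11 had 0.48 in E vs C (edgeR, adjusted p = 0.214), where smooth muscle markers, of which it is 1, summed to 169 to 195 FPKM in the E mice and 117 to 148 FPKM in the C mice.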

How the data were processed

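Bulk mRNA of gastrocnemius from 16 mice (4 groups of 4) was sequenced as 150-base pairs. Per the submitters' processing notes and the study's methods, the authors trimmed reads with fastp (0.20.1), aligned them to GRCm39 with HISAT2 (2.1.0) and deposited raw read counts per gene from HTSeq (0.11.2). The deposited FPKM values were calculated by the authors from these counts, per gene length and library total. Groups came from the sample labels, and 0 columns belonged to other samples. Counts were tested with edgeR (4.0.16, R 4.3.3) by the quasi-likelihood test with TMM factors, after its filter on low counts left 14749 of 35415 genes, with Benjamini-Hochberg adjustment over all of them and a threshold of 0.05. All 16 libraries entered a single fit with 1 coefficient per group, which was tested on simulated data. DESeq2 (1.42.0), other size factors, no filter, only the groups compared, a replicate block and leaving out mice were alternatives. Shares were compared with exact permutation tests, and correlations used log2(FPKM + 1) and 100000 permutations (Python 3.11.15, numpy 2.4.6). FPKM was used to compare genes per length. Library totals of 35628211 to 37635741 counts put at least 49 counts behind each value of the 6 genes. Named genes were the 6 members, from each list up to 4 genes with the smallest p in the comparison described, and the 5 genes most correlated with each member, of which 2 are not reported here. Atp2a1 was named outside this rule, after its values were seen. The members and lists were chosen with earlier results of these data known. RefSeq promoters were matched to GRCm39.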

Additional observations from a re-analysis of the deposited data

Results flagged for a closer look

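In each group of 4 mice, the levels and shares of the 6 genes were searched for a mouse that lay far from the other 3 (Dixon's test). Of 44 groups tested, 9 held such a mouse, and chance alone marks about 1 in 20 groups. Several of the 9 are the same mouse and shares depend on each other. Myh3 in the fourth T mouse read 11.6 FPKM against 0.352 to 1.27 FPKM in the other T mice. In the same mouse Myh8 read 8.47 FPKM against 3.61 to 4.11 FPKM, and Myh3 and Myh8 together made up 0.306% of the summed FPKM against 0.0672% to 0.0747%. In the second E mouse Myh4 read 4573 FPKM against 5147 to 5212 FPKM in the other E mice. There Myh1 took 13.4% against 8.76% to 9.35%, and Myh3 and Myh8 together 0.0972% against 0.0754% to 0.0790%. In the first TE mouse Myh4 took 81.5% against 85.2% to 85.9%, Myh1 took 11.2% against 8.59% to 8.83%, and Myh3 read 0.414 FPKM against 0.220 to 0.253 FPKM.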

How the results depend on the processing

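Of 654 log2 fold changes recomputed under the alternatives, 618 kept their direction and their side of the threshold, 29 changed sign and 7 passed the threshold where they had not. The number of the 6 genes called in T vs C was 2 with DESeq2, 1 without the filter on low counts and 0 to 2 with 1 mouse left out. DESeq2 called 1 in TE vs T. At an unadjusted p-value under 0.05 the numbers were 2 in T vs C, 3 in TE vs T, 2 for the tumor averaged, 1 for training averaged and 2 for the interaction. Over all genes, T vs C gave 100 calls, 423 with DESeq2, 174 without the filter 30 with only the groups compared, 23 without the third and the fourth T mouse, and from 16 (without the fourth C mouse) to 255 (without the second T mouse) with 1 mouse left out, and TE vs T gave 0, 7 with DESeq2, 3 without the filter and 0 to 2 with 1 mouse left out. DESeq2 against edgeR gave 179 and 34 in TE vs E, 257 and 13 in E vs C, 479 and 201 for the tumor averaged, 97 and 1 for training averaged, and 20 and 0 for the interaction. With 1 mouse left out the ranges were 18 to 69 in TE vs E, 0 to 127 in E vs C, 130 to 281 for the tumor averaged, 1 to 104 for training averaged and 0 to 1 for the interaction, where 69, 127 and 104 are without the third T mouse. Only the groups compared gave 96 in TE vs E and 183 in E vs C (25 there with a replicate block and 21 with DESeq2 size factors), no filter gave 69, 45 and, for training averaged, 17, and leaving out the third and the fourth T mouse gave 105, 193 and 119, so the shares of all genes called that stand beside the 6 genes depend on these choices. With the third and the fourth T mouse left out, which was chosen after seeing the data, log2 fold changes that changed sign were -0.48 for Myh7 and -0.034 for Myh8 in T vs C, 0.078 for Myh1 and 0.014 for Myh8 in TE vs T, -0.18 for Myh3 with the tumor averaged, and 0.0018 for Myh2 with training averaged. The correlations were then 0.54 for Myh1 and Myh8, 0.24 for Myh2 and Myh7, 0.57 for Myh2 and Myh3, and 0.45 for Myh7 and Myh3, and none passed. The cause was not tested.

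With 1 mouse left out, log2 fold changes in T vs C ran from -0.026 to 0.25 for Myh1, from -0.035 to 0.83 for Myh7 and from -0.10 to 0.41 for Myh8. In TE vs E they ran from -0.086 to 0.12 for Myh1, from -0.10 to 0.023 for Myh2 and from -0.23 to 0.0040 for Myh8. In E vs C the ranges were -0.011 to 0.19 for Myh1, -0.092 to 0.23 for Myh3 and -0.28 to 0.37 for Myh7, and in TE vs T -0.14 to 0.14 for Myh1, -0.082 to 0.035 for Myh4 and -0.43 to 0.083 for Myh8. Correlations ran from 0.57 to 0.78 for Myh1 and Myh8, from 0.46 to 0.69 for Myh2 and Myh7 and from 0.57 to 0.77 for Myh7 and Myh3. With a replicate block, Myh1 stood at 0.0034 in TE vs E and Myh7 at 0.083 in E vs C, and 0 of the 6 genes were called in T vs C. Replicate numbers gave no clear sign of pairing, with 5 of 24 same-number pairs correlating over 0.1 (from -0.24 to 0.21). Of 16 libraries, 5 correlated best with their own number. A weak pairing could go unseen in this check. All 38 recomputed counts of share tests passed stayed at 0. For the pairwise comparisons these counts could hardly move. The smallest p of the exact permutation test for 4 against 4 mice is 0.0286 before adjustment, and leaving out mice raises it. After adjustment that p passes only if many share tests reach it together. The unchanged counts in the pairwise comparisons therefore say little about how far the shares depend on the processing. With 4 mice per group, the spread between mice limits what these comparisons can resolve.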
